A study of Mus musculus with 6 samples.

Results

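The genes described here are 37 interferon-stimulated genes and members of the guanylate-binding protein (Gbp) family, chosen by symbol. All 37 were found among the 24972 rows of the deposited table. Of these, 35 reached 10 in 3 or more libraries, the condition for being tested. RNA sequencing measured them in macrophages grown from mouse bone marrow, in medium with 20% L929 supernatant, which supplies the growth factor M-CSF. There were 3 libraries of wild-type mice (WT) and 3 of Lcn10-knockout mice (Lcn10-KO). *Lcn10* codes for a secreted lipocalin, a small carrier protein. All 6 cultures were untreated, so no interferon or microbial product was added to either genotype. The comparison asks whether the resting level of these genes differed between the genotypes. The sources used here do not state the strain, age or sex of the mice, or whether each replicate was a separate mouse. The p-values therefore describe only how far these libraries differ among themselves, part of which may be technical.

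Macrophages make small amounts of interferon beta without infection, and this keeps a set of antiviral genes at a low, tonic level. Type I interferon binds the receptor IFNAR and activates a complex that includes STAT2 and IRF9 and binds a DNA element called the ISRE in the promoters of its target genes. Interferon gamma acts through another element, the GAS, and is the classical inducer of the Gbp genes, large GTPases that attack the membranes of intracellular pathogens. Many products of the pathway, such as STAT2, IRF7 and IRF9, are themselves induced by it.

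Values are normalized counts, read counts that the authors scaled between libraries. Depth, estimated from what 1 read is worth, was about 18000000, 18000000 and 24900000 reads for WT replicates 1 to 3 and 19200000, 24400000 and 19700000 in Lcn10-KO. The targeted gene *Lcn10* was listed at 0 in all 6 libraries, so it cannot check the genotype labels. Among all 12091 genes tested, 9.84% passed the threshold, limma with a Benjamini-Hochberg adjusted p under 0.05, with 4.7% higher and 5.14% lower in Lcn10-KO. The median log2 fold change of all genes tested, Lcn10-KO minus WT on the log2(value + 1) scale, was 0.00.

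In 26 of the 35 tested members (74.3%, against 45.4% of all genes tested) the genotypes differed by less than the residual SD of the replicates. This share goes with a larger SD, at a median of 0.389 against 0.0859, not with smaller differences. The median absolute log2 fold change was 0.158 in the members and 0.101 in all genes tested. The limma interval of the log2 fold change lay within 1 of 0 in 21 of the 35 members, against 11236 of 12091 genes. In the other members a difference of 1 on that scale was not excluded. Higher in Lcn10-KO were 2 Gbp genes. Of the 35 tested members, *Gbp8* and *Gbp5* rose, 0 fell and 33 did not pass the threshold, a share of 5.71% called against 9.84% of all genes tested. Both called genes were under 10 in all 3 WT libraries and entered the test only through their Lcn10-KO values, so a count over the tested members is a description. At an unadjusted p under 0.05 in limma there were 5 members, all higher in Lcn10-KO (*Gbp5*, *Gbp6*, *Gbp8*, *Gbp9* and *Ifi27l2a*), against 26.3% of all genes tested in either direction and 12.4% higher. Outside the Gbp family, 0 of 28 tested members were called and 1 had an unadjusted p under 0.05. The log2 fold changes of those 28 had a median of −0.07 and ran from −0.60 (*Oas3*) to 0.83 (*Ifi27l2a*). The 7 tested Gbp genes had a median of 0.44 and ran from −0.05 (*Gbp2*) to 1.97 (*Gbp8*). The 3 Lcn10-KO values lay above all 3 WT values in 5 of the 35 members and below them in 0, against 15.5% and 16.9% of all genes tested, or 32.4% together. For *Gbp5* and *Gbp8*, tested with all WT values under 10, that order was fixed by the filter. In libraries made from whole cultures, fewer cells of a type and less RNA per cell cannot be told apart.

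**Figure D1:**
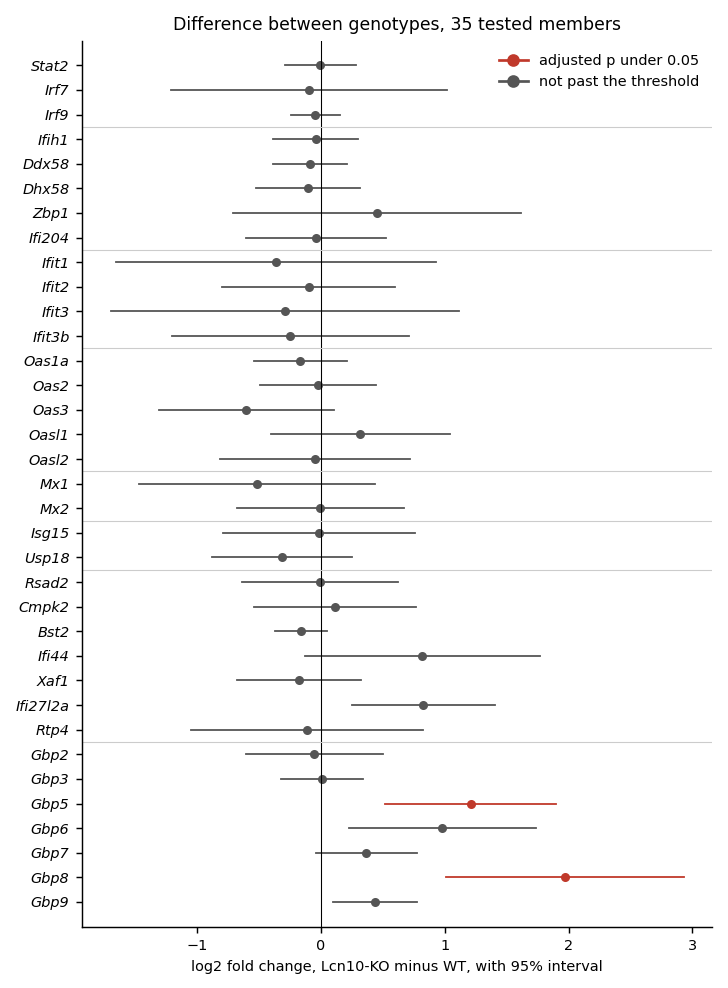
Log2 fold change (Lcn10-KO minus WT, x axis) of each of the 35 tested members with its 95% interval from limma, grouped by role; red marks an adjusted p under 0.05. *Gbp5* (1.21) and *Gbp8* (1.97) are the red points, and the intervals of all but 5 members include 0.

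The same genes varied widely between replicates, and they did so together. The residual SD of the log2 values within a genotype had a median of 0.40 over the 28 members outside the Gbp family, against 0.09 over all genes tested, and 94.1% of all genes tested had a smaller SD than that median. The genes compared were not matched for level, and low members such as *Ifi44* and *Zbp1* had SDs of 0.71 and 0.73. The smallest SD of the 28 was 0.147. In 24 of these 28 members (85.7%) the difference between genotypes was smaller than the gene's own SD, against 45.4% of all genes tested. Lcn10-KO replicate 3 was the lowest of the Lcn10-KO libraries in 27 of the 28, against 34.1% of all genes tested, and WT replicate 1 the lowest of the WT libraries in 25, against 37.4%. One of these libraries was the lowest of all 6 in 27 of the 28 members, against 44.3% of all genes tested. The highest value lay in WT replicate 3 or Lcn10-KO replicate 2 in 25 of the 28, against 26.4% of all genes tested. These are also the libraries with the most reads, 24900000 and 24400000, and the part of sequencing depth in this pattern was not tested.

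In Lcn10-KO replicate 3 the members outside the Gbp family stood at a median of 0.616 times the mean of the other Lcn10-KO libraries, from 0.312 for *Ifit3b* to 0.896 for *Irf9*. WT replicate 1 stood at a median of 0.746 times the mean of the other WT libraries. There the exceptions were *Usp18* and *Ifi44*, at 1.09 and 1.32 times. Over all genes tested both medians were 1.00. A list of 60 other type I interferon-stimulated genes held no member. In 55 of the 60 the lowest value lay in WT replicate 1 or Lcn10-KO replicate 3, against 44.3% of all genes tested. WT replicate 1 was the lowest of the 6 libraries in 37 of them and Lcn10-KO replicate 3 in 18. In the members outside the Gbp family Lcn10-KO replicate 3 was the lowest more often, in 18 against 9. With both of these libraries left out, an alternative chosen after the data were seen, 3 members were higher and 0 lower by limma (6 and 1 at an unadjusted p under 0.05). The 3 were *Gbp8*, *Gbp9* and *Ifi27l2a*.

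**Figure D2:**
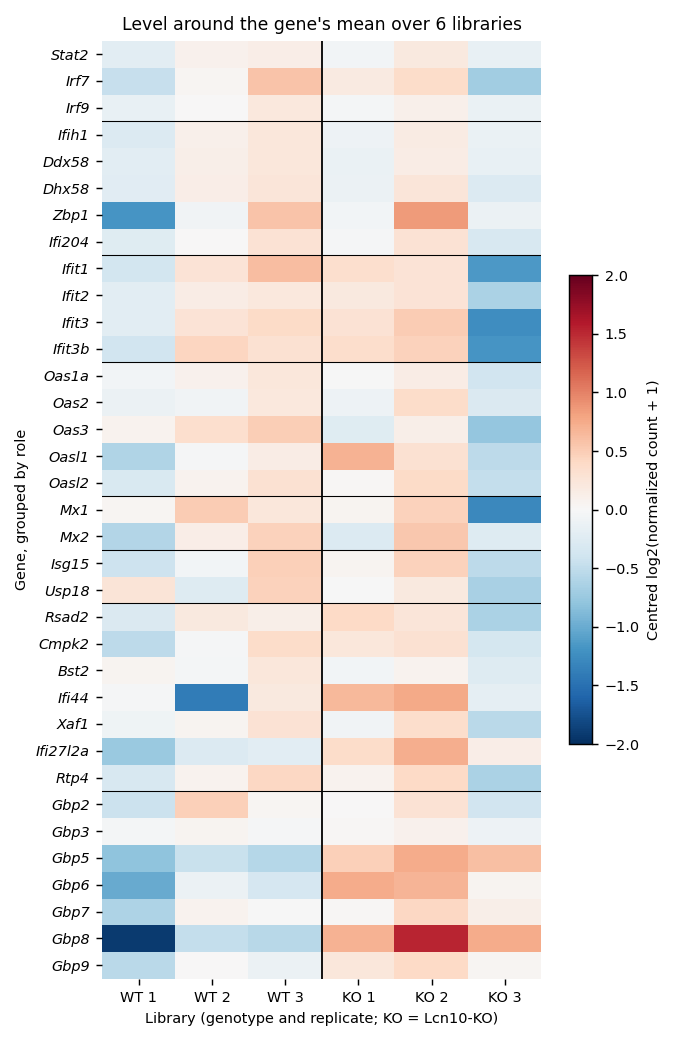
Colour gives the log2(normalized count + 1) of each tested member (rows, grouped by role) in each library (columns) around that gene's mean over the 6 libraries. The WT 1 and KO 3 columns are blue in most rows, whereas *Gbp5* and *Gbp8* are blue in the 3 WT and red in the 3 KO columns. In all 7 Gbp rows WT 1 is the lowest of the WT columns.

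None of the 3 transcription factors of the pathway passed the threshold, and 0 had an unadjusted p under 0.05 in limma. *Irf9*, the DNA-binding part of the interferon-activated complex, lay at 974, 1082 and 1241 normalized counts in WT replicates 1 to 3 and at 1051, 1150 and 986 in Lcn10-KO. Its log2 fold change was −0.04, with a 95% interval from −0.24 to 0.15. *Stat2*, its partner, had a log2 fold change of 0.00 (interval −0.29 to 0.28). *Irf7*, which amplifies interferon production and is itself induced by interferon, lay at 254, 360 and 520 in WT and at 398, 453 and 217 in Lcn10-KO. WT replicate 1 and Lcn10-KO replicate 3 were low and the genotypes overlapped. The log2 fold change of *Irf7* was −0.09, with an interval from −1.21 to 1.02, wider than those of *Irf9* and *Stat2*.

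Of the 6 nucleic acid sensors, 5 were tested and 0 were called, with 0 at an unadjusted p under 0.05. *Ddx58*, which codes for the RNA sensor RIG-I, lay at 626, 788 and 847 normalized counts in WT and at 662, 806 and 654 in Lcn10-KO (log2 fold change −0.09 ± 0.13 (SE)). *Ifih1* (MDA5) and *Dhx58* (LGP2), the related helicases, had log2 fold changes of −0.04 and −0.10. *Zbp1*, a sensor of Z-form nucleic acids that can start necroptosis, had the largest difference of the 5 at 0.45 ± 0.49. It lay at 20.4, 45.04 and 71.1 in WT and at 45.5, 86.5 and 43.8 in Lcn10-KO, so the groups overlapped and WT replicate 1 was the lowest library. *Ifi204*, a DNA-binding protein of the Ifi200 family, had a log2 fold change of −0.04 ± 0.22. *Ifi205*, of the same family, failed the filter, with 2.31, 6.80 and 0 in WT and 9.56, 27.8 and 2.08 in Lcn10-KO. *Ifi204* and *Ifi205* share 20.0% and 18.6% of their 50-base words with transcripts of other genes, chiefly *Ifi211*, so reads from these copies can be split between them.

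The IFIT genes, whose products bind foreign RNA ends, form a cluster on chromosome 19 and were lowest in the same library. *Ifit1* (chr19:34640871-34650009, plus strand, GRCm38) lay at 85.1, 133 and 169 normalized counts in WT and at 138, 133 and 48.8 in Lcn10-KO. *Ifit3b* lay at 17.1, 30.7 and 28.0 in WT and at 28.8, 31.3 and 9.37 in Lcn10-KO. For both genes Lcn10-KO replicate 3 was the lowest of the 6 libraries and the groups overlapped. *Ifit3* showed the same drop, to 60.4 in that library from 176 and 205 in the other Lcn10-KO libraries. Of the 50-base words of *Ifit3*, 51.2% occur in *Ifit3b*, and 44.5% of those of *Ifit3b* occur in *Ifit3*, so their separate values are uncertain. The log2 fold changes of the 4 IFIT genes ran from −0.36 to −0.10 with adjusted p from 0.721 to 0.868 by limma, and without Lcn10-KO replicate 3 those of *Ifit1*, *Ifit3* and *Ifit3b* turned to 0.13, 0.26 and 0.28.

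Among the OAS genes, named for enzymes that make the oligoadenylates that activate RNase L, *Oas3* had the largest downward difference of any member. *Oas3* (chr5:120753098-120777661, minus strand, GRCm38) lay at 967, 1171 and 1303 normalized counts in WT and at 780, 1002 and 542 in Lcn10-KO. A single Lcn10-KO library, replicate 2, exceeded the lowest WT value. The ratio of the means was 0.675, the log2 fold change was −0.60 ± 0.27 (SE) and the gene did not pass the threshold (limma adjusted p = 0.252). *Oas1a* lay at 1152, 1267 and 1401 in WT and at 1192, 1327 and 919 in Lcn10-KO (log2 fold change −0.16 ± 0.15), and 57.6% of its 50-base words occur in *Oas1g* too. *Oas2*, *Oasl2* and *Oasl1* had log2 fold changes of −0.02, −0.05 and 0.32, and *Oasl1*, a low gene, ran from 15.8 to 40.4 over the 6 libraries.

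The Mx genes code for dynamin-like GTPases that trap viral particles. *Mx1* lay at 42.7, 59.9 and 48.7 normalized counts in WT and at 43.3, 57.6 and 16.5 in Lcn10-KO, and *Mx2* at 27.2, 45.6 and 57.7 in WT and at 34.0, 60.9 and 34.4 in Lcn10-KO. The *Mx1* difference of −0.51 ± 0.41 became 0.00 without Lcn10-KO replicate 3. *Isg15*, the ubiquitin-like protein joined to other proteins during the response, had means of 143 ± 45.2 in WT and 142 ± 47.2 in Lcn10-KO (SD, n = 3 each). Its values were 103, 133 and 192 in WT and 143, 189 and 94.8 in Lcn10-KO, and the interval of its log2 fold change ran from −0.79 to 0.76. *Usp18*, the protease that removes ISG15 and also restrains the receptor, lay at 127, 87.8 and 146 in WT and at 104, 121 and 66.6 in Lcn10-KO (log2 fold change −0.31 ± 0.25).

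Of the 7 other antiviral effectors, *Ifi27l2a* came closest to the threshold. *Ifi27l2a* (chr12:103442167-103443680, minus strand, GRCm38), a small membrane protein gene, lay at 700, 969 and 1013 normalized counts in WT and at 1524, 1951 and 1291 in Lcn10-KO. All 3 Lcn10-KO values lay above the WT values, and the ratio of the means was 1.78. Its log2 fold change was 0.83 ± 0.22 (SE) with a limma adjusted p of 0.0908. Within each genotype it followed the common order, with WT replicate 1 and Lcn10-KO replicate 3 lowest. *Ifi44* lay at 16.2, 5.66 and 19.0 in WT and at 26.5, 28.5 and 14.5 in Lcn10-KO (0.82 ± 0.43, adjusted p = 0.257). *Bst2* (tetherin, which holds budding virus at the cell surface), *Xaf1*, *Rtp4*, *Rsad2* (viperin) and its neighbour *Cmpk2* had log2 fold changes from −0.17 to 0.12. The interval of *Bst2* ran from −0.37 to 0.05, among the narrower ones. Per kilobase of exon, *Ifi27l2a* and *Bst2* had the highest levels of all members, with means over the 6 libraries of 2681 and 1910 normalized counts per kilobase, and *Oas1a* followed at 642.

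The Gbp genes lie in a cluster on chromosome 3 (*Gbp5*, *Gbp7*, *Gbp3*, *Gbp2*) and another on chromosome 5 (*Gbp8*, *Gbp9*, *Gbp4*, *Gbp6*). *Gbp8* (chr5:105014150-105139540, minus strand, GRCm38) lay at 2.28, 7.96 and 7.42 normalized counts in WT and at 19.2, 34.6 and 19.8 in Lcn10-KO. All 3 Lcn10-KO values were above the WT values, which stand for a few reads per library. The ratio of the means was 4.16 and the log2 fold change 1.97 ± 0.44 (SE, limma adjusted p = 0.0184). Since only its Lcn10-KO values reached the filter's 10, the gene had to be high there to be tested, and with no filter on low values its adjusted p was 0.0121. The call was lost when Lcn10-KO replicate 2 (adjusted p = 0.117) or replicate 3 (0.0726) was left out, and when limma used no trend (0.120), over a range of 0.00493 to 0.120 in 14 alternatives. *Gbp5* (chr3:142493978-142522344, plus strand, GRCm38), a promoter of inflammasome assembly, lay at 6.85, 9.10 and 8.25 in WT and at 18.1, 22.0 and 19.8 in Lcn10-KO. The groups did not overlap, with a ratio of the means of 2.47 and a log2 fold change of 1.21 ± 0.32 (adjusted p = 0.0335). It too was tested only through its Lcn10-KO values, so the filter fixed that its groups did not overlap. With no filter its limma adjusted p was 0.0333. This call held with WT replicate 2 left out and was lost without each of the other 5 libraries (adjusted p of 0.0509 to 0.147), and under quantile normalization (0.0508).

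The other 5 tested genes of the family did not pass the threshold. *Gbp9* lay at 250, 365 and 333 normalized counts in WT and at 425, 478 and 372 in Lcn10-KO, and *Gbp6* at 6.90, 13.6 and 11.5 in WT and at 25.5, 24.4 and 15.6 in Lcn10-KO. For both, chosen for mention after their values were seen, the groups did not overlap. Their log2 fold changes were 0.44 ± 0.15 and 0.98 ± 0.35 (limma adjusted p = 0.0992 and 0.0911), and *Gbp9* passed without WT replicate 2 (0.0354). *Gbp7* was at 103 ± 24.9 in WT and 132 ± 20.0 in Lcn10-KO (SD, n = 3 each), with overlapping groups (adjusted p = 0.234). *Gbp3* had a log2 fold change of 0.01, with values of 62.1 to 70.4 in all 6 libraries. *Gbp2*, next to it on chromosome 3, had −0.05 and ran from 80.7 in WT replicate 1 to 151 in WT replicate 2. *Gbp4* failed the filter, at 2.08 to 6.38. Thus *Gbp5*, *Gbp8*, *Gbp9* and *Gbp6* had every Lcn10-KO value, replicate 3 included, above all WT values. That order held in 15.5% of all genes tested. For *Gbp5* and *Gbp8*, under 10 in every WT library, the filter left no other order possible.

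Reads of the Gbp genes on chromosome 5 cannot always be assigned to 1 gene. *Gbp8*, *Gbp9* and *Gbp4* overlap on the same strand, and *Gbp6* shares 70.7% of its 50-base words with other genes, mainly *Gm43302* and *Gbp10*. The sum over the 6 listed Gbp genes of that chromosome does not depend on how reads were split among those 6. It was 264, 390 and 355 in WT and 479, 541 and 411 in Lcn10-KO, 1.42 times WT by the means, and *Gbp9* made up most of it. For the 5 listed genes of chromosome 3 the sum was 227, 351 and 299 in WT and 313, 381 and 290 in Lcn10-KO, 1.12 times WT, and the genotypes overlapped.

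**Figure D3:**
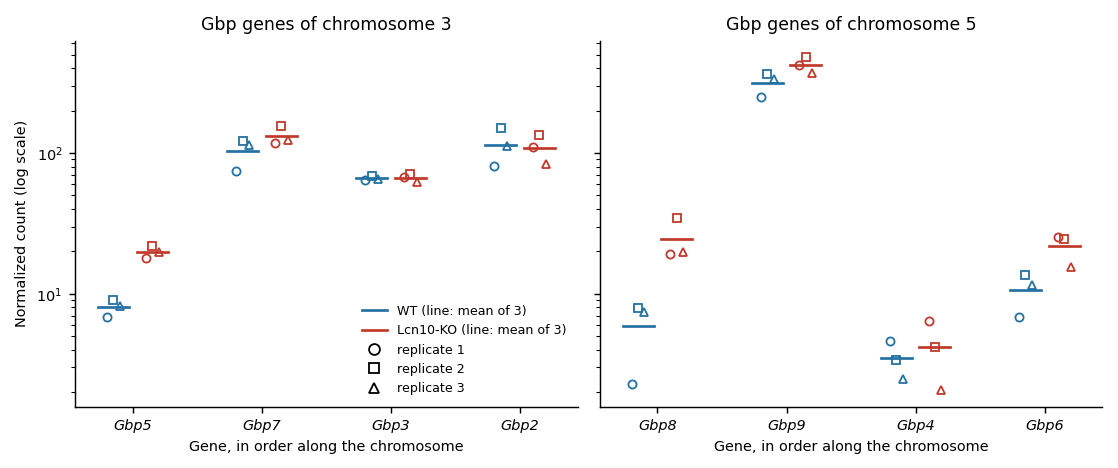
Normalized counts (log axis) of the 8 Gbp genes in each library, blue for WT and red for Lcn10-KO, with the replicate number as the symbol and the mean of 3 as a line, in order along chromosomes 3 and 5. *Gbp5*, *Gbp8*, *Gbp9* and *Gbp6* have all red points above the blue ones, while the points of *Gbp7*, *Gbp3*, *Gbp2* and *Gbp4* overlap.

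Promoter sequences show which members carry the elements through which interferon signals. RefSeq promoter windows (GRCm38.p6, 250 bases before to 50 after each start) matched 24 of the 37 members. The ISRE core was searched on both strands as GAAA, any 2 bases and GAAA again, and the GAS as TTCNNNGAA, which reads the same on both. The ISRE core occurred in 16 of the 24 members, against 3.99% of all 27025 genes in the table, and 22 of its 25 matches lay before the start. The GAS occurred in 5 of the 24, against 9.55% of all genes. Both were found in *Bst2*, *Gbp5*, *Gbp7* and *Oas1a*, 4 of the 24, against 0.614% of all genes. There were 5 pairs of overlapping ISRE core matches and 1 overlap of an ISRE core with a GAS, in *Bst2*. These matches are descriptions of letters, not of binding.

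The Gbp genes of chromosome 3 are shown because they share the ISRE core and differ in their values, and 4 interferon-stimulated genes are shown beside them. Each line gives the 180 bases before the RefSeq start on the gene's own strand, with ISRE core and GAS matches in capitals. The windows are, in order, chr3:142496754-142496933 (plus), chr3:142530156-142530335 (plus), chr3:142559864-142560043 (plus), chr3:142620483-142620662 (plus), chr4:156200819-156200998 (minus), chr19:34640709-34640888 (plus), chr12:26456453-26456632 (minus) and chr5:120777660-120777839 (minus).
Gbp5: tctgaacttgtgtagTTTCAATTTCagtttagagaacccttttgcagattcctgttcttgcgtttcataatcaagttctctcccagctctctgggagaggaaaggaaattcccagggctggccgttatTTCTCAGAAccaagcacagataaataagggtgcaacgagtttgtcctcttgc
Gbp7: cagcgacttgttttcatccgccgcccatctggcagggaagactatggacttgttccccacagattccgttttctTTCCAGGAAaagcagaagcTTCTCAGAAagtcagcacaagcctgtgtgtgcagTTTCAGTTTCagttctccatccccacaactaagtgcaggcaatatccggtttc
Gbp3: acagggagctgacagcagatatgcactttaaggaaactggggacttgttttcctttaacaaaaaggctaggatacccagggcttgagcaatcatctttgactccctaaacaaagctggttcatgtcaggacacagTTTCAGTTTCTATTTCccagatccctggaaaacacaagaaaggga
Gbp2: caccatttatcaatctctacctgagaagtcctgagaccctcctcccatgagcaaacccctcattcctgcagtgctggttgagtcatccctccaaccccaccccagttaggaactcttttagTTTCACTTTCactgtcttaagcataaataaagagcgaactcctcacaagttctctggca
Isg15: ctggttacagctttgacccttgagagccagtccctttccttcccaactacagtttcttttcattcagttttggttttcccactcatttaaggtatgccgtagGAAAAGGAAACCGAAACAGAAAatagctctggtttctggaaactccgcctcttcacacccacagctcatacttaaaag
Ifit1: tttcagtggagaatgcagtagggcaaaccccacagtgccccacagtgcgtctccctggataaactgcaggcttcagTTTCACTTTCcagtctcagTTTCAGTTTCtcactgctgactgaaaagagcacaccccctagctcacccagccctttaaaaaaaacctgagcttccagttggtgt
Rsad2: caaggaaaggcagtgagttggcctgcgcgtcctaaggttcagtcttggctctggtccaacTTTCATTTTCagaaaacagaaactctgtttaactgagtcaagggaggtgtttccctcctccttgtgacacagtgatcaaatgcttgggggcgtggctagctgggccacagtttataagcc
Oas3: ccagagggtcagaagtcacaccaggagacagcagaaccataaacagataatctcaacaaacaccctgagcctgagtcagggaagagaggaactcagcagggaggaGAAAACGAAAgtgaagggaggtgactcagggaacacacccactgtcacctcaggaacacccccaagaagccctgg
*Gbp5*, which rose, has an ISRE core 165 bases before its start and a GAS 52 bases before it, with another GAS at 245 bases that lies outside the printed stretch. The RefSeq start of *Gbp5* lies inside the GENCODE span given above, so its window is not upstream of that span. The windows of *Gbp2*, *Gbp3*, *Ifit1* and *Oas3* also run into the GENCODE spans of their genes. The ISRE core of *Gbp2* lies inside its span. *Gbp7*, which did not pass the threshold, has an ISRE core at 53 bases and GAS matches at 106 and 87. *Bst2* and *Oas1a*, which also hold both elements, did not pass either. Of the 4 members with both only *Gbp5* was called, against 9.84% of all genes tested, and it was tested only through its Lcn10-KO values. Whether these elements go with a difference between the genotypes was not tested. The Gbp genes of chromosome 5 and *Ifi27l2a* had no matched promoter, so *Gbp8*, the other called member, was not searched. *Gbp3* and *Gbp2*, which did not pass the threshold, have ISRE cores at 45 and 39 and at 59 bases and no GAS in this window. *Gbp3* has a second RefSeq start, and the 180 bases before it (chr3:142560176-142560355, not printed) hold no ISRE core or GAS match. *Isg15* has 3 overlapping ISRE cores and *Ifit1* has 2 separate ones, and both were lowest in Lcn10-KO replicate 3. *Oas3* and *Rsad2* have 1 each.

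**Figure D4:**
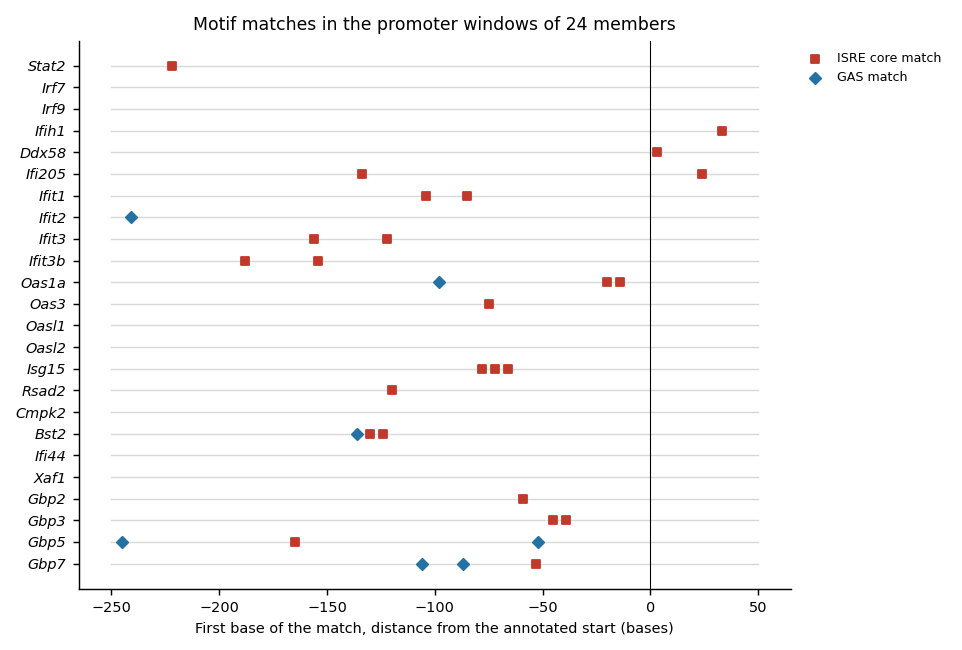
Position of each ISRE core (red squares) and GAS match (blue diamonds) relative to the annotated start (bases, x axis) in the promoter windows of the 24 matched members (rows). *Isg15*, *Bst2*, *Gbp3* and *Oas1a* hold overlapping ISRE core matches, and 8 of the 24 have no ISRE core match.

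The upstream part of the pathway was looked at with 8 lists of other pathway genes, chosen by role, with 190 symbols in all. Of the 20 interferon genes, 17 were listed at 0 in every library and the highest value of any was 2.08 (*Ifnz*). *Ifnb1*, the interferon of the tonic loop, was listed at 0 in 5 libraries and at 1.14 in WT replicate 2, so its level could not be compared. Of the receptors and kinases, 0 of 10 were called and 2 had an unadjusted p under 0.05. *Ifnar1* and *Ifnar2*, the type I receptor, had log2 fold changes of 0.05 ± 0.05 and 0.07 ± 0.05, and *Ifngr1*, of the interferon gamma receptor, 0.11 ± 0.08.

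Of the 138 tested genes of these lists, 4 rose and 4 fell, 5.80% against 9.84% of all genes tested. Among the sensors and adaptors, *Mb21d1*, which codes for the DNA sensor cGAS, lay at 753, 711 and 723 normalized counts in WT and at 601, 579 and 569 in Lcn10-KO. It fell by 0.32 ± 0.06 on the log2 scale (SE, limma adjusted p = 0.00664). *Ikbke*, a kinase that activates interferon regulatory factors, lay at 959, 1181 and 1118 in WT and at 1354, 1490 and 1395 in Lcn10-KO, and rose by 0.38 ± 0.07 (adjusted p = 0.0120). For both genes the genotypes did not overlap. The list of interferon regulatory factors also held related genes, and its 1 call was *Irf2bpl*. This relative of the IRF2-binding proteins, not itself such a factor, fell by 0.27 ± 0.05 (limma adjusted p = 0.0115). *Irf1*, a driver of Gbp transcription, had 0.13 ± 0.07 (adjusted p = 0.257), with WT values of 750.0 to 900.4 and Lcn10-KO values of 901.8 to 955.9 that all but touch, and *Irf8*, a factor of the myeloid lineage, had 0.01 ± 0.04.

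Among the negative regulators *Ptpn1*, a phosphatase that acts on the kinases of the receptor, rose by 0.23 ± 0.05 (adjusted p = 0.0206). Of 60 other type I interferon-stimulated genes, *Helz2* and *Slfn9* fell by 0.42 ± 0.10 and 0.28 ± 0.06 (adjusted p = 0.0309 and 0.0129), and *Ifi27* rose by 0.19 ± 0.06 (adjusted p = 0.0496). Of 21 interferon gamma-inducible genes *Cd274*, the checkpoint ligand PD-L1, rose by 0.38 ± 0.09 (adjusted p = 0.0232). In the Ifi200 cluster 0 of 5 tested genes passed by limma, and 0 had an unadjusted p under 0.05. *Gvin1*, a large GTPase gene singled out after its values were seen, lay at 514, 452 and 594 in WT and at 182, 92.4 and 0 in Lcn10-KO and did not pass (adjusted p = 0.340). The calls of these lists were 0 higher and 0 lower without Lcn10-KO replicate 3 (19 and 10 at an unadjusted p under 0.05), and 0 and 2 without Lcn10-KO replicate 2 (8 and 11). They were 8 higher and 5 lower without WT replicate 2, and 2 higher and 3 lower without WT replicate 3 or Lcn10-KO replicate 1.

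**Figure D5:**
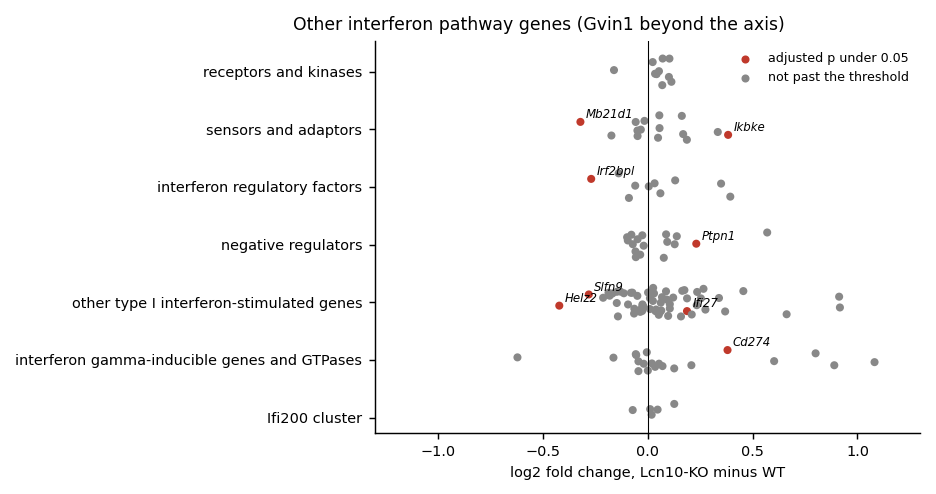
Log2 fold change (Lcn10-KO minus WT, x axis) of each tested gene of 7 lists of other interferon pathway genes (rows; no interferon gene was tested), with calls in red and named. The 8 red points lie between −0.42 and 0.38, 4 on each side, and *Gvin1* lies outside the axis at −4.33.

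The cultures carried macrophage markers, and defining markers of plasmacytoid dendritic cells, T cells and NK cells were at or near 0. The 8 macrophage markers summed to 280100 to 290900 normalized counts in WT and 293800 to 308300 in Lcn10-KO, with *Mertk* and *Adgre1* higher and *Csf1r* and *Cd14* lower by limma. Of 7 plasmacytoid dendritic cell markers, the defining *Siglech* was at 0 in 5 libraries and 1.14 in WT replicate 2. *Klk1* was at 0 in all 6, and the sum of 2392 to 2716 came mostly from *Tcf4* and *Il3ra*. Of 10 listed T and NK cell markers, the sources of interferon gamma, 5 were at 0 in all libraries (*Cd8a*, *Ncr1*, *Nkg7*, *Gzma* and *Prf1*), and the sum was 4.95 to 7.97 in WT and 7.45 to 10.4 in Lcn10-KO. The 10 neutrophil markers summed to 337 to 465 in WT and 408 to 450 in Lcn10-KO, with *Ly6g* at 0. The 7 conventional dendritic cell markers summed to 1350 to 2041 and 1808 to 2317, nearly all of it *Itgax*, which macrophages also express. The 7 fibroblast and stroma markers summed to 2887 to 4422 in WT and 3797 to 4291 in Lcn10-KO, mostly *Col1a1* and *Col1a2*, with 0 of 6 tested genes called. The 6 B cell markers summed to 37.1 to 54.5 in WT and 57.7 to 76.6 in Lcn10-KO, so the sums did not overlap. Only 2 of the 6 were tested and 0 were called, too few tests to read as no difference. Endothelial markers summed to 362 to 488 in WT and 386, 841 and 559 in Lcn10-KO replicates 1 to 3, with *Stab2* and *Egfl7* higher by limma. The highest sum lay in Lcn10-KO replicate 2, where 5 of the 7 tested Gbp genes were also highest. That library was highest in 39.3% of the members outside the Gbp family and in 16.2% of all genes tested. In Lcn10-KO replicate 1 the sum of 386 lay within the WT range. There *Gbp5*, *Gbp6*, *Gbp8* and *Gbp9* lay above all WT values, and the other tested Gbp genes did not. The part of endothelial cells in the Gbp values was not tested.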

How the data were processed

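RNA of untreated macrophages was sequenced in 6 libraries, 3 per genotype. The deposited values are a signal, read counts per gene that the authors scaled between libraries. They are not whole, and totals lay between 20476700 and 20636300. The submitters' processing notes name STAR 2.6.1a, Salmon 0.11.2, bcl2fastq, DESeq2 and build mm10. The sources used here do not state their roles, the annotation or the strand setting. The value of a read (0.824 to 1.14) made 90.3% to 92.3% of low values whole within 0.1 reads, too few for a test on counts.

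Genes reaching 10 in 3 or more libraries were tested on log2(value + 1). The model had only genotype and was fitted in limma 3.58.1 (R 4.3.3) with robust, trended variances, and Benjamini-Hochberg adjustment over 12091 genes at 0.05. The procedure was tested on simulated data with independent noise, in which only genes with a mean of at least 50 were changed. It does not show how well changes are found in genes as low as *Gbp5* and *Gbp8*. Members, lists and tests were chosen with earlier results of these data known. Per-library values are given for called members, the 2 smallest p in each role group and the largest differences. For pathway lists, called genes up to 5 and a few preset genes are named, of which 1 is not reported here. Gene positions came from GENCODE M21 (GRCm38) and promoters from RefSeq. The share of 50-base words found in other genes' transcripts measured shared sequence. Alternatives were other scalings, filters, pseudocounts, limma without the trend, a replicate block and left-out libraries. The promoters of 13 members were not used here. Plots used matplotlib 3.10.9 (Python 3.11.15).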

Additional observations from a re-analysis of the deposited data

How the results depend on the processing

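Of the 35 tested members, 31 were called in none of the 15 alternatives, and 0 members were lower by limma in any of them (up to 4 at an unadjusted p under 0.05, without Lcn10-KO replicate 2). The number higher, 2 as reported, was 1 in limma without the trend (*Gbp5*), 1 under quantile normalization (*Gbp8*) and 0 with a mean of at least 50, which leaves out *Gbp5* and *Gbp8* (2 at an unadjusted p under 0.05). It ran from 0 to 3 when 1 library was left out, with 0 without Lcn10-KO replicate 2 or 3 (3 and 6 at an unadjusted p under 0.05). The sign of the log2 fold change held in all alternatives for 13 members and turned in at least 1 for 22. The members' median log2 fold change of −0.04 ran from −0.21 without Lcn10-KO replicate 2 to 0.17 without Lcn10-KO replicate 3, within the SD of 0.30 between replicates. Pathway genes, 4 higher and 4 lower as reported, were 0 and 0 in limma without the trend (15 and 10 at an unadjusted p under 0.05). With 1 library left out they ran from 0 to 8 higher and from 0 to 5 lower. With the replicate number as a block, 3 members and 9 pathway genes were higher, *Gbp9* being the member added. Same-numbered libraries correlated at 0.04, 0.07 and 0.01 in their deviations from the genotype means. The other pairs lay below 0, from −0.06 to −0.003, except WT replicate 3 with Lcn10-KO replicate 1. That pair, at 0.03, exceeded the 0.01 of the libraries numbered 3. The values leaned towards the numbering but were small, so the numbers were not taken to pair the libraries in the main fit. *Gbp5* and *Gbp8* lie at a few reads in WT, where depth limits the precision.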
